A study of Homo sapiens with 6 samples.

Results

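The interleukin 6 (IL-6) cytokine family was examined in MDA-MB-231, an established human triple-negative breast cancer cell line, after treatment with the peptide PDBAG1. The 10 genes were chosen by symbol: the cytokines IL6, IL11 and LIF, the receptor chains IL6R, IL6ST, LIFR and OSMR, the transcription factor STAT3, and the feedback inhibitors SOCS1 and SOCS3. All 10 were found among the 17631 genes measured, and all 10 were expressed well enough to be tested. RNA was compared between 3 libraries from cells given vehicle and 3 from cells given 30 µM PDBAG1, both collected after 24 h. PDBAG1 is a synthetic peptide that joins a fragment of the protein GPD1 to a cell-penetrating stretch, and it was added directly to the culture medium. The control group received vehicle and no peptide, so effects of the GPD1 fragment and of the cell-penetrating stretch cannot be told apart.

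Most cytokines of this family signal through a shared receptor chain, gp130, which IL6ST encodes. IL-6 first binds IL6R, IL-11 first binds IL11RA, LIF joins gp130 to LIFR, and oncostatin M (OSM) joins gp130 to OSMR or LIFR. The engaged receptors activate JAK kinases, which phosphorylate STAT3. STAT3 then enters the nucleus and induces, among other genes, SOCS3, whose protein binds gp130 and JAKs and shuts the signal down. SOCS1 also blocks JAKs. IL6, IL11 and LIF are known to be induced by NF-kB and AP-1 factors, and in breast cancer they are secreted by tumour cells as well as by stroma.

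Promoter windows of RefSeq were available for 9 of the 10 genes, all but LIF. They run from 250 bases before to 50 bases after a transcription start on GRCh38.p14. They were searched on both strands for 4 motifs, whose matches did not overlap each other. The motifs were TTCNNNGAA for STAT factors, ACGTG as the core of the hypoxia response element, TGANTCA for AP-1, and the kappaB consensus of NF-kB. IL6 is shown because its RNA changed most, IL11 because its RNA was higher too, and SOCS1 because it also holds a kappaB match although its RNA did not pass the test. The printed stretches lie before the RefSeq start and outside every exon of GENCODE v44, and capitals mark the motif matches. The IL6 stretch lies within the GENCODE v44 span of the gene, which begins further upstream, at 22725884.
IL6 (chr7:22726950-22727146, plus strand): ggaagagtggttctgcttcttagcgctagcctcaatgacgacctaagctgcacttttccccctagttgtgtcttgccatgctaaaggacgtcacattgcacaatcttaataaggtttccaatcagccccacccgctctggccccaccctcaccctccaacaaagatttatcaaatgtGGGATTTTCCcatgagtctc
IL11 (chr19:55370464-55370713, minus strand): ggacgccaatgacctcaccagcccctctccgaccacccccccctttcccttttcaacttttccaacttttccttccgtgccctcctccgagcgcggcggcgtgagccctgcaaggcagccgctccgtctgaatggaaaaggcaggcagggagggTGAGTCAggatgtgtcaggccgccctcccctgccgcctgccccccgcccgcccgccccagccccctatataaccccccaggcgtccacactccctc
SOCS1 (chr16:11256205-11256454, minus strand): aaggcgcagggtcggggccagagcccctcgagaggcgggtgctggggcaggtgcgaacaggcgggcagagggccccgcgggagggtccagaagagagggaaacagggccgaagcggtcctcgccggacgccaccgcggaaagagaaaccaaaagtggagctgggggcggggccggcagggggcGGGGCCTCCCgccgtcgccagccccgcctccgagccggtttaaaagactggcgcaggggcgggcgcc
The kappaB match of IL6 began 73 bases before the start, and that of SOCS1 began 67 bases before it. The AP-1 match of IL11 began 96 bases before its start. IL6ST held a kappaB match 53 bases before its start, and IL6R and OSMR held AP-1 matches after theirs, 37 and 3 bases on. STAT matches were found in 2 of the 3 LIFR windows, and the hypoxia core in the same 2 windows and in OSMR. No letters of these motifs were found in the windows of STAT3 and SOCS3. Of all 35116 promoter windows, 11.3% held the kappaB consensus, 7.71% the AP-1 motif, 7.66% the STAT motif and 21.4% the hypoxia core. Over the 14832 windows of genes tested here the shares were 13.3%, 5.36%, 6.23% and 25.2% in the same order. These matches describe the letters of a window and not binding.

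**Figure D1:**
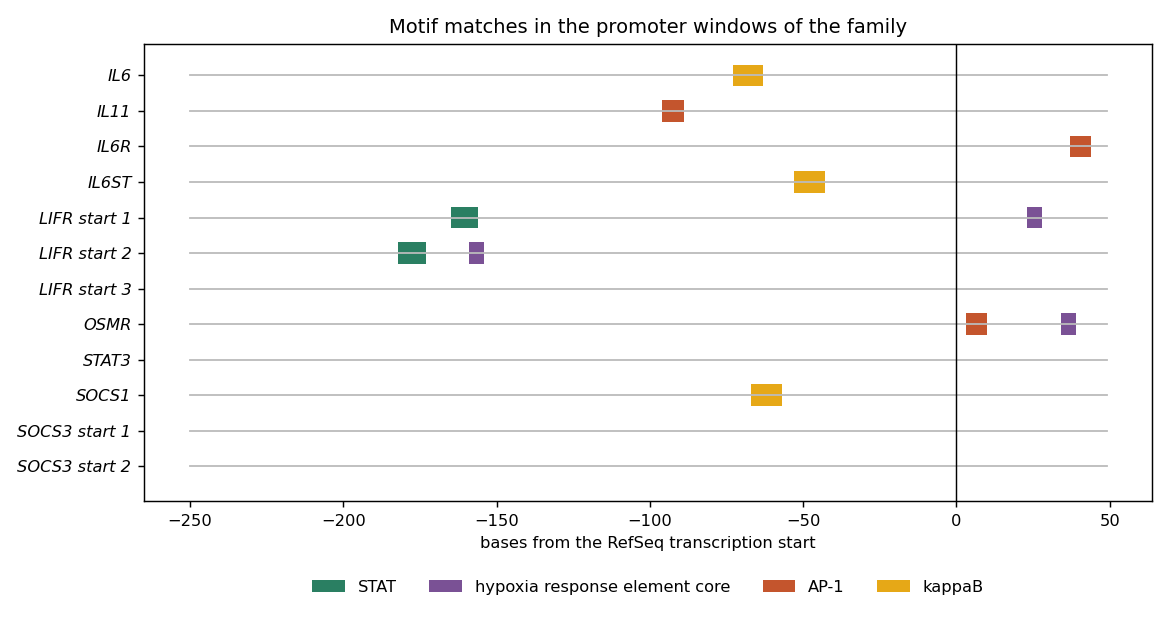
Motif matches in the promoter windows of the family. The horizontal axis is the distance in bases from the RefSeq transcription start, each line is 1 window, and coloured blocks are matches; LIFR and SOCS3 have several annotated starts. The kappaB blocks stand between 73 and 44 bases before the start in IL6, SOCS1 and IL6ST, and the AP-1 block of IL11 begins at 96 bases before it.

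Values are in TPM, a unit of transcript abundance that is scaled for transcript length and for the library total. Genes can therefore be set side by side, but counting errors particular to a gene, as from shared exon bases, were not measured. TPM keeps no sequencing depth, and the depth of each library is unknown. The limma test was run on log2(TPM + 1) for the 12582 genes that reached 1 TPM in no fewer than 3 libraries, and adjusted p values are by Benjamini-Hochberg over all of them. A gene was called at an adjusted p under 0.05 with a fold change of at least 1.5. Nothing in the labels says whether the libraries of a group came from separate cultures, so p values measure only the spread between these libraries. The variance of each gene was also drawn by limma towards a trend over all genes tested. A p value therefore does not rest on the spread of its own gene alone. Since these are bulk cultures, a change in every cell and a change in the share of cells that express a gene cannot be told apart. The mesenchymal markers of the line were high (VIM, CD44, AXL, EGFR and CAV1, all 5 at 66.26 TPM or more), while PGR stayed at 0.06 TPM or less, CDH1 at 0.84 or less, ESR1 at 1.96 to 3.38, GATA3 at 2.73 to 3.88 and ERBB2 at 23.6 to 25.4. Of the mesenchymal markers CD44 and VIM were higher with PDBAG1 (log2 fold changes of 0.59 and 0.46), AXL and CAV1 were lower (-0.26 and -0.30), and EGFR did not pass the test. The labels also name breast cancer tissue as the source. Of 4 leukocyte markers with values, CD163 and NKG7 stayed at 0.17 TPM or less and PTPRC at 1.41 or less, while CD14 reached 7.70. CD14 was lower in every PDBAG1 library, at 6.01 to 6.52 TPM against 6.72 to 7.70 with vehicle. This difference did not pass the test (limma adjusted p = 0.143). Of 5 endothelial and fibroblast markers with values, 3 stayed under 1 TPM in every library (VWF, CDH5 and LUM), and PDGFRB and PECAM1 were higher with PDBAG1, PDGFRB at 2.39 to 2.51 TPM against 1.62 to 2.01 (limma adjusted p = 0.0355) and PECAM1 at 7.87 to 9.15 TPM against 3.78 to 4.08 (limma adjusted p = 2.21e-06). CDH5 did not overlap between the groups either, at 0.41 to 0.46 TPM against 0.25 to 0.39. The summed level of these 5 was 5.73 to 6.41 TPM with vehicle and 10.81 to 12.04 TPM with PDBAG1, and its part in the results was not tested.

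The 3 cytokine genes were all higher with PDBAG1, and IL6 and LIF were the members called. Of the 10 members, 2 were called higher and 0 lower, where 2.86% of all genes tested were called higher and 0.477% lower. Without the fold limit 5 of the 10 were higher at an adjusted p under 0.05, and 0 were lower, against 21.7% and 15.9% of all genes. The same 5 had 3 PDBAG1 libraries above all 3 vehicle libraries and 0 lay below them, against 27.2% and 20.2% of all genes. The other 5 members did not pass the test. The median log2 fold change of the 10 was 0.26, beside 0.03 over all genes tested.

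IL6 (ENSG00000136244, chromosome 7, 22725884 to 22732002, GRCh38, GENCODE v44) encodes the founding cytokine of the family. Its level was 86.4, 84.6 and 82.5 TPM in the vehicle libraries and 155, 164 and 149.8 TPM in the PDBAG1 libraries. The groups lay far apart, and the 3 vehicle libraries were close to each other. The mean rose from 84.5 ± 1.92 to 156 ± 7.28 TPM (SD, n = 3 per group), a TPM ratio of 1.85. The log2 fold change was 0.88 with an SE of 0.05 (limma, adjusted p = 8.54e-09), which ranked IL6 at 113 among the rises of the 12582 genes.

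LIF (ENSG00000128342, chromosome 22, 30240453 to 30246759) encodes leukaemia inhibitory factor, which maintains stem cell states and has roles in implantation and cachexia. It was at 43.8, 42.9 and 44.1 TPM with vehicle and at 69.0, 69.4 and 69.8 TPM with PDBAG1. Both groups were tight, and no value lay between 44.1 and 69.0 TPM. The mean rose from 43.6 ± 0.668 to 69.4 ± 0.375 TPM (SD, n = 3 per group). For LIF, limma gave a log2 fold change of 0.66 with an SE of 0.05 (adjusted p = 1.75e-07). LIF was the member just inside the fold limit.

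IL11 (ENSG00000095752, chromosome 19, 55364382 to 55370463) encodes interleukin 11, which is linked to bone metastasis in breast cancer. Its vehicle libraries held 86.3, 83.0 and 83.1 TPM, almost the level of IL6, and its PDBAG1 libraries 108, 108 and 119.6 TPM. The groups did not overlap, and PDBAG1 replicate 3 was the highest. The mean went from 84.1 ± 1.88 to 112 ± 6.56 TPM (SD, n = 3 per group; limma log2 fold change 0.41 with SE 0.05, adjusted p = 2.73e-05), a rise of less than 1.5-fold. Added together, the TPM of the 3 cytokines were 209.8 to 217 with vehicle and 332 to 342 with PDBAG1.

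**Figure D2:**
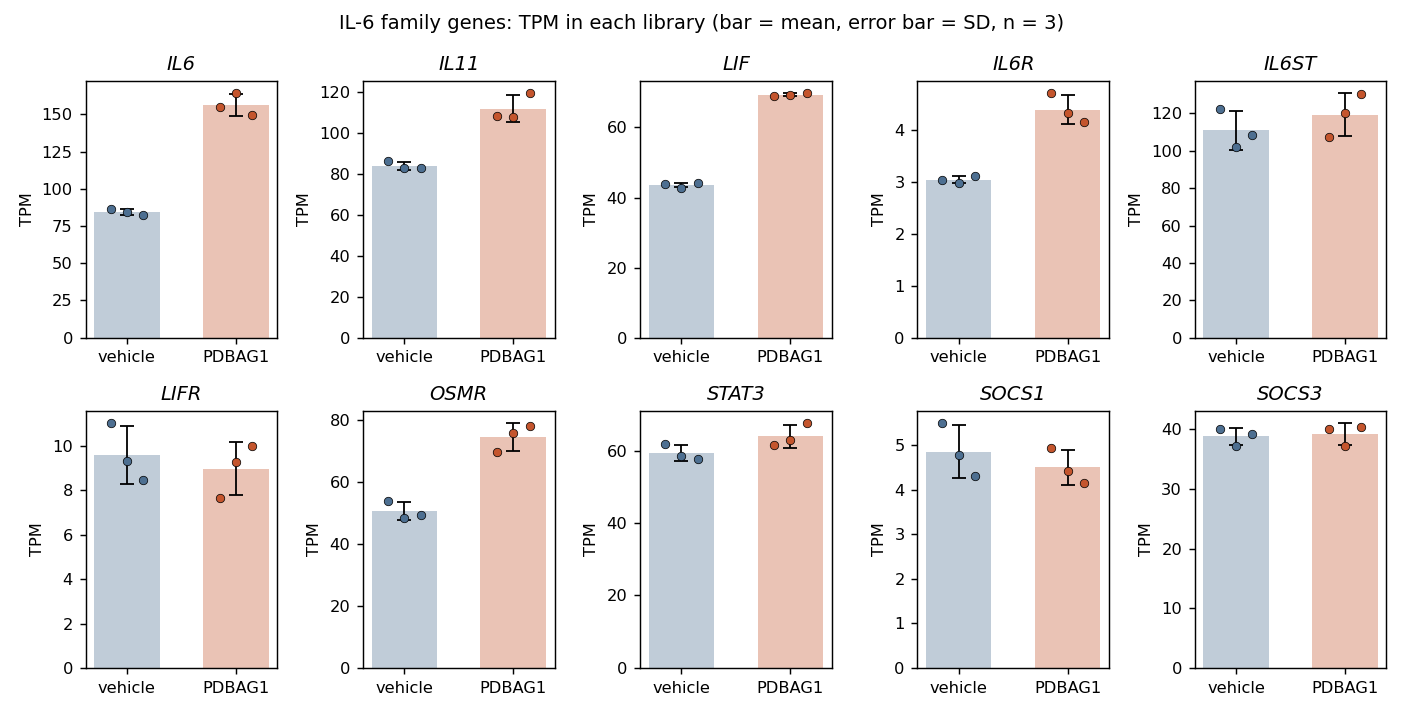
TPM of the 10 genes in each library. The vertical axis is TPM and starts at 0, bars are the means of vehicle and PDBAG1 with the SD as error bar (n = 3 each), and points are the libraries. IL6, IL11, LIF, IL6R and OSMR have every PDBAG1 point above every vehicle point, and the points of IL6ST, LIFR, STAT3, SOCS1 and SOCS3 overlap.

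Of the 4 receptor chains, OSMR and IL6R were higher with PDBAG1 by less than 1.5-fold, and IL6ST and LIFR did not pass the test. OSMR (ENSG00000145623, chromosome 5, 38845858 to 38945596), which encodes the oncostatin M receptor subunit and serves IL-31 too, was at 53.9, 48.5 and 49.4 TPM with vehicle and at 69.5, 75.9 and 78.0 TPM with PDBAG1. The lowest PDBAG1 library stood well above the highest vehicle library. The mean rose from 50.6 ± 2.89 to 74.5 ± 4.41 TPM (SD, n = 3 per group; limma log2 fold change 0.55 with SE 0.06, adjusted p = 7.82e-06), just outside the fold limit. The limit was crossed without vehicle replicate 1 (log2 fold change 0.60) and without PDBAG1 replicate 1 (0.60).

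IL6R (ENSG00000160712, chromosome 1, 154405193 to 154469450), the chain that binds IL-6 itself, had the lowest mean of the 10 in both groups. It was at 3.04, 2.99 and 3.11 TPM with vehicle and at 4.71, 4.32 and 4.16 TPM with PDBAG1. The groups did not overlap. The mean rose from 3.05 ± 0.0603 to 4.40 ± 0.283 TPM (SD, n = 3 per group), a TPM ratio of 1.44. The log2 fold change was 0.41 with an SE of 0.09 (limma, adjusted p = 0.00344), which understates the change of a gene at this level because 1 was added to each TPM.

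IL6ST (ENSG00000134352, chromosome 5, 55935095 to 55995022), the shared signal transducer gp130, was abundant in every library. It was at 122.6, 102 and 108 TPM with vehicle and at 108, 120.3 and 130.3 TPM with PDBAG1. The groups overlapped over most of their range. The log2 fold change was 0.10, with a 95% confidence interval from -0.05 to 0.26 (limma adjusted p = 0.278). LIFR (ENSG00000113594, chromosome 5, 38474668 to 38608354), the chain for LIF, was at 11.02, 9.33 and 8.46 TPM with vehicle and at 7.66, 9.27 and 10.0 TPM with PDBAG1. Its highest and its lowest library belonged to vehicle replicate 1 and PDBAG1 replicate 1. The log2 fold change was -0.09 (95% confidence interval -0.32 to 0.14, limma adjusted p = 0.554), and it was 0.007 without the former and 0.012 without the latter.

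Vehicle replicate 1 was the highest vehicle library for 8 of the 10 members, as it was for 60.6% of all genes tested, and PDBAG1 replicate 1 was the lowest PDBAG1 library for 5, as it was for 52.8%. With both left out, an alternative chosen after the data were seen, the log2 fold change of IL6ST was 0.25 (limma adjusted p = 0.00249) and that of OSMR 0.64. IL6ST was at 0.18 (limma adjusted p = 0.0431) without PDBAG1 replicate 1 alone and at 0.18 (limma adjusted p = 0.0567) without vehicle replicate 1 alone. In the fit without both libraries IL6 was at 0.90, LIF at 0.67, IL11 at 0.45 and IL6R at 0.37, all 4 with a limma adjusted p under 0.05.

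STAT3 and the SOCS genes showed no difference that passed the test. STAT3 (ENSG00000168610, chromosome 17, 42313324 to 42388540) was at 61.7, 58.4 and 57.7 TPM with vehicle and at 61.6, 62.8 and 67.5 TPM with PDBAG1. The groups overlapped only through vehicle replicate 1 and PDBAG1 replicate 1. The log2 fold change was 0.11 (95% confidence interval -0.004 to 0.22, limma adjusted p = 0.122), and without both of these libraries it was 0.16 with an adjusted p of 0.0287. SOCS3 (ENSG00000184557, chromosome 17, 78356778 to 78360077), the feedback inhibitor of gp130, was at 40.1, 37.2 and 39.2 TPM with vehicle and at 40.1, 37.2 and 40.4 TPM with PDBAG1. The values of the groups lay on top of each other. Its log2 fold change was 0.01, with a 95% confidence interval from -0.11 to 0.13 (limma adjusted p = 0.864), so a change of 1.5-fold in either direction lay outside the interval. It turned to -0.03 under both other scalings, again far from the threshold. SOCS1 (ENSG00000185338, chromosome 16, 11254417 to 11256204), an inhibitor of JAKs best known from interferon signalling, was at 5.49, 4.78 and 4.31 TPM with vehicle and at 4.94, 4.42 and 4.15 TPM with PDBAG1. These groups overlapped too, with a log2 fold change of -0.09 (95% confidence interval -0.31 to 0.13, limma adjusted p = 0.529).

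**Figure D3:**
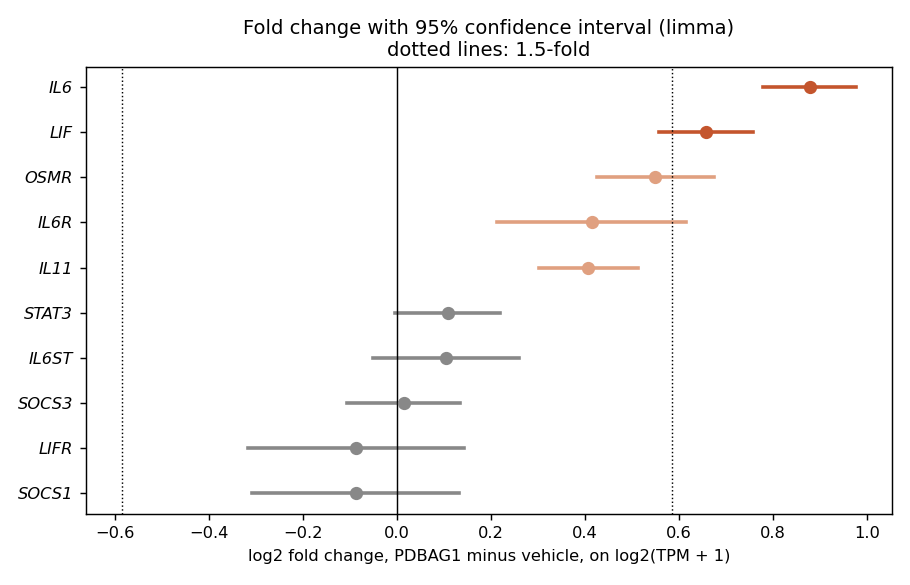
Log2 fold change of PDBAG1 against vehicle for the 10 genes. The horizontal axis is the limma estimate on log2(TPM + 1), lines are 95% confidence intervals, and dotted lines stand at 1.5-fold. IL6 at 0.88 and LIF at 0.66 lie past the line, OSMR at 0.55 just before it, and the intervals of STAT3, IL6ST, SOCS3, LIFR and SOCS1 include 0.

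The order of the levels differed between the groups. With vehicle, IL6ST was highest at 111 ± 10.6 TPM (SD, n = 3), followed by IL6 and IL11, whose library values overlapped, and then by STAT3, OSMR, LIF, SOCS3, LIFR, SOCS1 and IL6R. Apart from IL6 and IL11, no neighbours in this order had overlapping values. With PDBAG1, IL6 stood above IL6ST, since its lowest library (149.8 TPM) exceeded the highest of IL6ST (130.3 TPM), and both OSMR and LIF stood above STAT3. In this order IL6ST overlapped with IL11, OSMR with LIF, and SOCS1 with IL6R, while the remaining neighbours did not overlap. The overlap of libraries does not measure counting errors particular to a gene, so both orders are those of the TPM values only.

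Ratios of TPM within a library were computed for 6 pairs of members, chosen after the values were seen. IL6 per IL11 was 1.00, 1.02 and 0.993 in the vehicle libraries and 1.43, 1.52 and 1.25 in the PDBAG1 libraries. The cytokines stood level with vehicle and apart with PDBAG1. OSMR per LIFR, the alternative receptor partners for oncostatin M, went from 5.31 ± 0.484 to 8.35 ± 0.662 (SD, n = 3 per group). LIF per LIFR went from 4.596 ± 0.620 to 7.82 ± 1.06, and OSMR per IL6ST from 0.457 ± 0.018 to 0.625 ± 0.025 (SD, n = 3 per group). In these ratios and in IL6 per IL6ST the groups did not overlap. The exact two-sided permutation p was 0.1 for each, the smallest that 3 libraries against 3 allow (0.12 after Benjamini-Hochberg adjustment over the 6 ratios). This adjustment does not cover the choice of pairs by their values, so the p values are no independent test. SOCS3 per STAT3 overlapped between groups, at 0.656 ± 0.022 and 0.614 ± 0.032 (SD, n = 3 per group; exact permutation p = 0.3, adjusted 0.3).

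**Figure D4:**
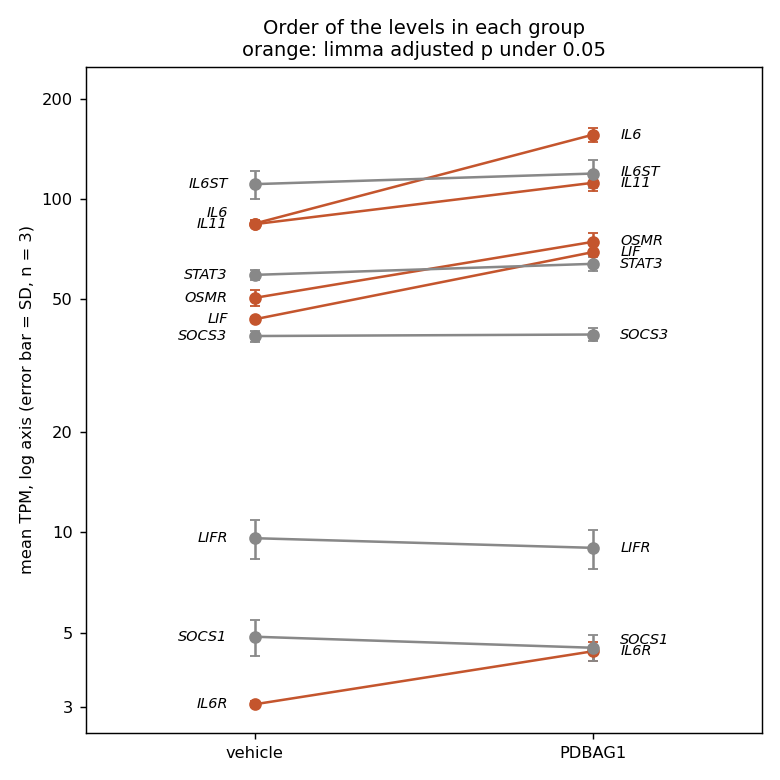
Mean TPM of the 10 genes with vehicle and with PDBAG1. The vertical axis is a log axis in TPM, error bars are SD (n = 3 each), and orange lines are genes with a limma adjusted p under 0.05. IL6 rises from beside IL11 to the top of the order at 156 TPM, and OSMR and LIF pass STAT3, while SOCS3 stays near 39 TPM.

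None of the other ligands and receptors of the family was called. Over all genes tested, 21.7% were higher and 15.9% lower at an adjusted p under 0.05, with a median log2 fold change of 0.03. Of 8 further cytokines and soluble partners 4 were tested. Of these, 1 was higher at an adjusted p under 0.05 and 0 were lower, and the median log2 fold change was 0.15. That gene was CLCF1, a ligand of the CNTF receptor, which rose from 30.8 ± 1.41 to 36.7 ± 2.38 TPM (SD, n = 3 per group; limma log2 fold change 0.24, adjusted p = 0.00780). OSM, the ligand of OSMR and a neighbour of LIF on chromosome 22, was at 0.06 TPM or less in every library. Of 4 further receptors 3 were tested and 2 were higher (median 0.26). IL31RA, which pairs with OSMR, rose from 14.3 ± 0.950 to 18.3 ± 0.881 TPM (SD, n = 3 per group; limma log2 fold change 0.34, adjusted p = 0.00215). IL27RA, a receptor that also uses gp130, had a log2 fold change of 0.26 with an adjusted p of 0.0464 and overlapping groups, and passed in 4 of 14 alternatives. IL11RA, the chain that IL-11 needs, was at 4.42 ± 0.506 and 4.81 ± 0.246 TPM (SD, n = 3 per group; limma adjusted p = 0.432), and CNTFR was at 0.05 TPM or less.

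Among the 8 JAK and other STAT genes tested, 3 were higher at an adjusted p under 0.05, 0 were lower, and none was called. The shares over all genes tested were 21.7% higher and 15.9% lower. The median log2 fold change of the 8 was 0.13, beside 0.03 over all genes. JAK1, the main kinase on gp130, went from 41.7 ± 2.47 to 51.1 ± 3.26 TPM (SD, n = 3 per group; limma log2 fold change 0.29, adjusted p = 0.00241). STAT2 and STAT6, which serve interferon and IL-4 signalling, had log2 fold changes of 0.28 and 0.23.

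Of 13 other negative regulators tested, 3 were higher and 1 was lower at an adjusted p under 0.05, with a median of 0.09. Of all genes tested, 21.7% were higher, 15.9% lower and 0.477% called lower, with a median of 0.03. The 1 called gene of this list was SOCS2, which restrains growth hormone and STAT5 signalling. SOCS2 was at 14.4, 15.5 and 14.3 TPM with vehicle and at 6.48, 8.04 and 8.05 TPM with PDBAG1. Every PDBAG1 library lay far below every vehicle library. Its log2 fold change was -0.89 with an SE of 0.09 (limma, adjusted p = 4.50e-06). SOCS4, SOCS5, SOCS6 and SOCS7 had log2 fold changes between -0.003 and 0.19, and none passed the test. The 3 higher genes were PTPN6, PIAS2 and PIAS3, at log2 fold changes of 0.32, 0.30 and 0.20, and they passed in 9, 7 and 7 of 14 alternatives. The groups overlapped for PIAS2 but not for PTPN6 and PIAS3. PTPN6 encodes a phosphatase of cytokine receptors, and the PIAS proteins restrain STATs.

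ADAM17, the protease that sheds IL6R from the cell surface, rose from 25.96 ± 0.930 to 36.8 ± 2.62 TPM (SD, n = 3 per group; limma log2 fold change 0.48, adjusted p = 5.62e-05), under 1.5-fold. ADAM10, a protease with the same substrate, was at 59.7 ± 3.88 and 57.3 ± 3.60 TPM (SD, n = 3 per group; adjusted p = 0.468). Of all genes tested, 21.7% were higher and 15.9% lower at an adjusted p under 0.05, and 2.86% were called higher. Of 9 genes that control IL6 mRNA, 5 were higher and 0 lower at an adjusted p under 0.05, with a median of 0.26. ZFP36, which destabilises cytokine mRNAs, was the 1 called, rising from 18.8 ± 0.432 to 29.9 ± 2.28 TPM (SD, n = 3 per group; log2 fold change 0.64). ZC3H12A, the nuclease regnase-1 that degrades IL6 mRNA, had a log2 fold change of 0.49, and ARID5A, which stabilises it, one of 0.43. ZFP36L1 was at 0.52 and NFKBIZ, a co-activator of IL6 transcription, at 0.26.

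Of 20 known STAT3 target genes 18 were tested, of which 14 were higher and 3 lower at an adjusted p under 0.05. Over all genes tested the shares were 21.7% and 15.9%. The median log2 fold change was 0.39, beside 0.03 over all genes. In this list 7 were called, all higher, where 2.86% of all genes were called higher and 0.477% lower. The list was chosen with earlier results of these data known. Of the 14, CEBPD, HIF1A and TIMP1 passed in only 6, 6 and 7 of 14 alternatives. The 7 were FOS, VEGFA, JUNB, BCL6, CEBPB, MCL1 and ICAM1, with log2 fold changes of 1.83, 1.23, 1.074, 0.85, 0.82, 0.81 and 0.73. JUNB, an AP-1 subunit, rose from 34.9 ± 1.57 to 74.6 ± 3.93 TPM, and BCL6, a transcriptional repressor, from 12.3 ± 1.24 to 22.9 ± 0.434 TPM (SD, n = 3 per group). MCL1, a survival protein, rose from 141 ± 5.64 to 249 ± 8.49 TPM (SD, n = 3 per group). These genes also answer to other factors, VEGFA to hypoxia-inducible factors, ICAM1 to NF-kB and FOS to ERK signalling. The part of STAT3 in these changes was not tested. The 3 lower genes were BIRC5, BCL2L1 and CCND1, at log2 fold changes of -0.22, -0.21 and -0.12, of which CCND1 passed in 6 of 14 alternatives. BIRC5 and CCND1 are tied to the cell cycle, and BCL2L1 to survival. SOCS3, itself a STAT3 target, was kept out of this list because it is a member.

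The genes nearest to the called members were sought by the Euclidean distance between log2(TPM + 1) profiles centred over the 6 libraries. Nearest to IL6 were KDM4B (distance 0.07, log2 fold change 0.90), BCL2A1 (0.09 and 0.83) and P4HA2 (0.09 and 0.94). KDM4B encodes a histone demethylase, BCL2A1 a survival protein and P4HA2 a collagen prolyl hydroxylase. Nearest to LIF were NFKB2 (distance 0.05, log2 fold change 0.64), which encodes an NF-kB subunit, LAMB3 (0.06 and 0.65), a laminin chain, and GDPD5 (0.06 and 0.64). With libraries in 2 groups such a distance mostly reflects the size of the change.

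Exons of several members overlap genes on the opposite strand, and whether the counting used strand is not stated. IL6 shares 9.9% of its annotated exon bases with the antisense RNA IL6-AS1 and 1.1% with STEAP1B, OSMR shares 3.2% with RICTOR, LIFR shares 5.2% with LIFR-AS1, IL6ST shares 6.6% with an antisense RNA, and LIF shares 2.2% with LIF-AS1 and 2.1% with LIF-AS2. Without strand, reads from these bases cannot be told apart from those of the partner. The shares count the exons of every annotated transcript of a member, 4321 bases for IL6, whose canonical transcript has 1127 bases. Shares of the canonical transcripts were not measured. The other 5 members share no exon bases with another gene in GENCODE v44.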

How the data were processed

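RNA was sequenced from 3 vehicle and 3 PDBAG1 libraries of MDA-MB-231 cells, grouped by sample title. The authors' methods describe mRNA libraries sequenced on the BGISEQ-500 platform and clean reads mapped with HISAT2 to GRCh38.p13, with counts normalised to FPKM. The submitters' processing notes name HISAT2 2.0.4, Bowtie2 2.2.5, RSEM 1.2.12 and GRCh38.p12, and their labels mention Illumina library protocols. The authors deposited TPM values with 2 decimals and an equal total per library, and the annotation release is not given in the sources used here. TPM keeps no depth, so precision rests on the spread between 3 libraries per group and on the variance that limma shares between genes.

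Genes that reached 1 TPM in no fewer than 3 libraries were kept, 1 was added, and log2 values were fitted in limma 3.58.1 under R 4.3.3, with eBayes set to model a variance trend. The adjusted p was by Benjamini-Hochberg over all genes tested. A call needed 1.5-fold and an adjusted p under 0.05, the thresholds of the study's methods. The steps were tested on simulated data. The members, lists and tests were chosen with earlier results of these data known. Named were all members, the called genes of each list or, where none was called, up to 4 with the largest change past the threshold, and the 3 nearest profiles of each called member. Genes named beyond this rule (ZC3H12A, ARID5A, ZFP36L1, NFKBIZ, PTPN6, PIAS2, PIAS3, BIRC5, BCL2L1, CCND1, CEBPD, HIF1A, TIMP1, and genes at or under the threshold) were chosen after their values were seen. Some genes of the lists are withheld and not reported here by name. Gene positions are from GENCODE v44, matched by Ensembl identifier, and promoter sequences are from RefSeq on GRCh38.p14. Deviations from the group means correlated by -0.21, 0.01 and -0.08 between libraries of the same number, which gave no sign of pairing.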

Additional observations from a re-analysis of the deposited data

How the results depend on the processing

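IL6 and LIF were called in all 14 alternatives, with log2 fold changes of 0.84 to 0.91 and 0.62 to 0.67. Without the trend of variance their limma adjusted p values were 4.78e-05 and 8.23e-05. The 14 were a pseudocount of 0.1, no expression filter, 1 TPM or more required of all libraries, median-of-ratios scaling, quantile normalization, no trend of variance, the replicate block, each of the 6 libraries left out, and, chosen after the data were seen, both libraries numbered 1 left out. IL11 (0.36 to 0.45), IL6R (0.31 to 0.51) and OSMR (0.51 to 0.64) kept an adjusted p under 0.05 in all 14. OSMR also passed the fold limit without vehicle replicate 1 (0.60), without PDBAG1 replicate 1 (0.60) and without both (0.64), and ranged from 0.52 to 0.60 over the libraries left out singly. LIFR and SOCS3 passed in none and changed sign: LIFR to 0.007 and 0.012 without vehicle or PDBAG1 replicate 1 and 0.11 without both (range -0.17 to 0.012 over single libraries), and SOCS3 to -0.027 under both other scalings, -0.015 without vehicle replicate 2, -0.0013 without PDBAG1 replicate 1 and -0.0069 without PDBAG1 replicate 3 (range -0.015 to 0.051). IL6ST passed 0.05 in 2 of the 14 alternatives, without PDBAG1 replicate 1 and without both, and ranged from 0.04 to 0.18 over single libraries. STAT3 passed in 1, without both, and ranged from 0.07 to 0.14. SOCS1 passed in none, with -0.16 to -0.01 over single libraries and -0.20 under quantile normalization. The cause was not tested.

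The count of members called higher was 0 at a fold limit of 2 and 5 with no limit. Over all genes, 360 were called higher and 60 lower, against 73 and 7 at a limit of 2 and 2736 and 2000 with no limit, 530 and 100 with the pseudocount of 0.1, and 287 and 94 under quantile normalization. The replicate block changed no call of a member (IL6 0.88, LIF 0.66), and the replicate numbers have no stated common origin. GDPD5, among the 3 genes nearest to LIF, fell below the fold limit under quantile normalization (0.58). Without read counts, no depth-based limit could be set.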
